A study of Homo sapiens with 8 samples.

Results

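The genes of MHC class II antigen presentation were followed across 8 expression arrays of human multiple myeloma cells. The set holds 10 genes: the class II chains HLA-DRA, HLA-DPA1, HLA-DPB1, HLA-DQA1 and HLA-DQB1, the peptide exchange factors HLA-DMA, HLA-DMB and HLA-DOA, the invariant chain CD74 and the transactivator CIITA. Every probe set of the array whose annotation names a member and no other gene was taken, which gave 30 of the 54675 probe sets and 10 of the 19775 genes named by such probe sets. The rule picks probe sets by annotation and uses no measured value. HLA-DQB1 had 7 probe sets, HLA-DOA 5, HLA-DPA1, HLA-DQA1, CD74 and CIITA 3 each, HLA-DRA and HLA-DPB1 2 each, and HLA-DMA and HLA-DMB 1 each. Of the 30, 12 end in _x_at or _s_at, the maker's mark for probes that can match more than a single transcript, and probe sets of HLA genes can bind RNA of their relatives.

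RPMI-8226 and JJN3, both established myeloma cell lines, were each measured in 4 states: without lentivirus, with lentivirus carrying a non-targeted (NT) shRNA, with lentivirus carrying an shRNA to XBP1, and with lentivirus carrying an shRNA to IRE1. The kinase and RNase IRE1, encoded by ERN1, splices the mRNA of the transcription factor XBP1 when unfolded protein builds up in the endoplasmic reticulum. Infection lasted 16 hours in the presence of 8 μg/mL polybrene, and cells were collected at 96 hours. There was 1 array for each line and state, so that the 2 lines are the only replicates of a treatment (n = 2), and each line difference rests on 4 pairs of arrays. The promoter of the shRNA vectors and the sequence of each shRNA are not given in the sources used here. The values are log2 signals in which each probe set has a median of 0 over the 8 arrays, so that they give differences between arrays and no level of a gene. For the same reason the plasma cell identity of the lines could not be checked by level.

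MHC class II molecules are pairs of an alpha and a beta chain that carry peptides from endosomes to the cell surface for CD4+ T cells. CD74 fills the groove of new pairs in the endoplasmic reticulum, HLA-DM (HLA-DMA with HLA-DMB) exchanges its remnant for peptide, and HLA-DO tempers HLA-DM. CIITA switches the whole group on by binding to the RFX, NF-Y and CREB factors on X and Y box promoter elements. It is turned down when B cells become plasma cells, in which PRDM1 (Blimp-1) represses it.

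The promoter elements that CIITA works through are shown for the members in which a plain letter search found the RFX part of the X box. RefSeq promoter windows on GRCh38.p14, 250 bases before to 50 after a start site, were at hand for 8 of the 10 genes, as 9 windows of 300 bases; HLA-DRA and CIITA are named only. Both strands were searched for the RFX X box, whose matches are the first run of capitals in each line, and for ATTGG, the core of the Y box. Stretches of 75 bases are given 5′ to 3′ on the minus strand, with matches to both in capitals.

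HLA-DQB1, chr6:32666723-32666797: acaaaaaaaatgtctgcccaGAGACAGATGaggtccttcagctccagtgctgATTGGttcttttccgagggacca

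HLA-DMA, chr6:32953155-32953229: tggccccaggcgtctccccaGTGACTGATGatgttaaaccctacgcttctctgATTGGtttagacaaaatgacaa

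HLA-DMB, chr6:32941061-32941135: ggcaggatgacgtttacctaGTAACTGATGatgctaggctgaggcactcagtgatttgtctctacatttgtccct

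The X box pattern lay in 3 of the 9 member windows and in 2.33% of all 35116 windows of the same length. Its first base was 120 bases before the start in HLA-DQB1, 112 in HLA-DMA and 87 in HLA-DMB. The Y box core, on either strand, lay in 7 of the 9 member windows, those of HLA-DPB1, HLA-DQA1, HLA-DQB1, HLA-DMA, HLA-DMB, HLA-DOA and CD74, against 34.6% of all windows. Both patterns in order on a strand, 15 to 25 bases apart, were found in HLA-DQB1, with a gap of 22 bases, in HLA-DMA, with a gap of 23, and in 0.0342% of all windows. For the XBP1 side, the core GACGTG lay in 2 of the 9 windows (7.81% of all) and CCACG, part of the endoplasmic reticulum stress element, in 3 (38.1% of all). These lay in windows of HLA-DPA1 and HLA-DOA. GACGTG and CCACG matches overlap in the HLA-DOA window and in the HLA-DPA1 window at 33080699 to 33080998. The other HLA-DPA1 window, at 33073600 to 33073899, holds CCACG alone. The matches describe letters in these windows and no binding was measured.

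The shRNA targets were read on each array first, as a percentage of the signal on the NT shRNA array of the same line. For XBP1 (200670_at), the XBP1 shRNA arrays gave 65.9% (RPMI-8226) and 45.6% (JJN3), and the arrays labelled IRE1 shRNA gave 64.7% and 16.8%. The ERN1 signal (235745_at) was at 53.9% on the JJN3 array labelled IRE1 shRNA and at 129.8% on the RPMI-8226 array labelled so, which goes against that label. With the XBP1 shRNA label, ERN1 read 36.7% and 42.9%. In each line ERN1 was thus lower under the XBP1 shRNA label than under the IRE1 shRNA label. XBP1 was lower under the IRE1 shRNA label, by little in RPMI-8226. Whether the labels match the shRNAs used was not tested, and the sign of every difference between the shRNAs rests on them. Treatments are therefore given below as the labels have them. Among technical readings, the median of 27 poly-A spike probe sets peaked, in each line, with XBP1 shRNA (RPMI-8226 0.41, JJN3 0.12). The median of 18 hybridisation controls was 0.42 on the JJN3 IRE1 shRNA array and -0.0047 to 0.048 on the other JJN3 arrays.

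Most member probe sets differed between the lines, and over all 30 more were higher than lower in JJN3. On all 4 arrays of JJN3, 14 of the 30 probe sets lay above all 4 arrays of RPMI-8226, 7 lay below, and 9 overlapped. The share of all probe sets that separate the lines in this way was not counted, so these counts only describe the members. In the limma fit with treatment as a block, 25 of 30 passed a Benjamini-Hochberg adjusted p of 0.05 over all 54613 tested probe sets, 16 higher in JJN3 and 9 lower. The background was wide: 56.0% of all probe sets were called between the lines, 22.8% higher and 33.3% lower in JJN3. The median JJN3 minus RPMI-8226 log2 difference was 0.68 for the members and -0.14 for all probe sets. This lean to JJN3 depended on the probe sets counted. Without those ending in _x_at or _s_at, 16 of 18 members were called (53.0% of all probe sets kept). Of these, 8 were higher and 8 lower in JJN3, and the median over the 18 was 0.14. The 3′ minus 5′ difference of the actin controls, a reading of RNA integrity, was -0.61 to -0.43 on the RPMI-8226 arrays and 0.13 to 0.42 on the JJN3 arrays. That of the GAPDH controls differed little, at -0.083 to 0.062 and 0.0037 to 0.046. These control probe sets are centred like all others, so both readings are relative. The part of RNA integrity in the line difference was not tested.

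**Figure D1:**
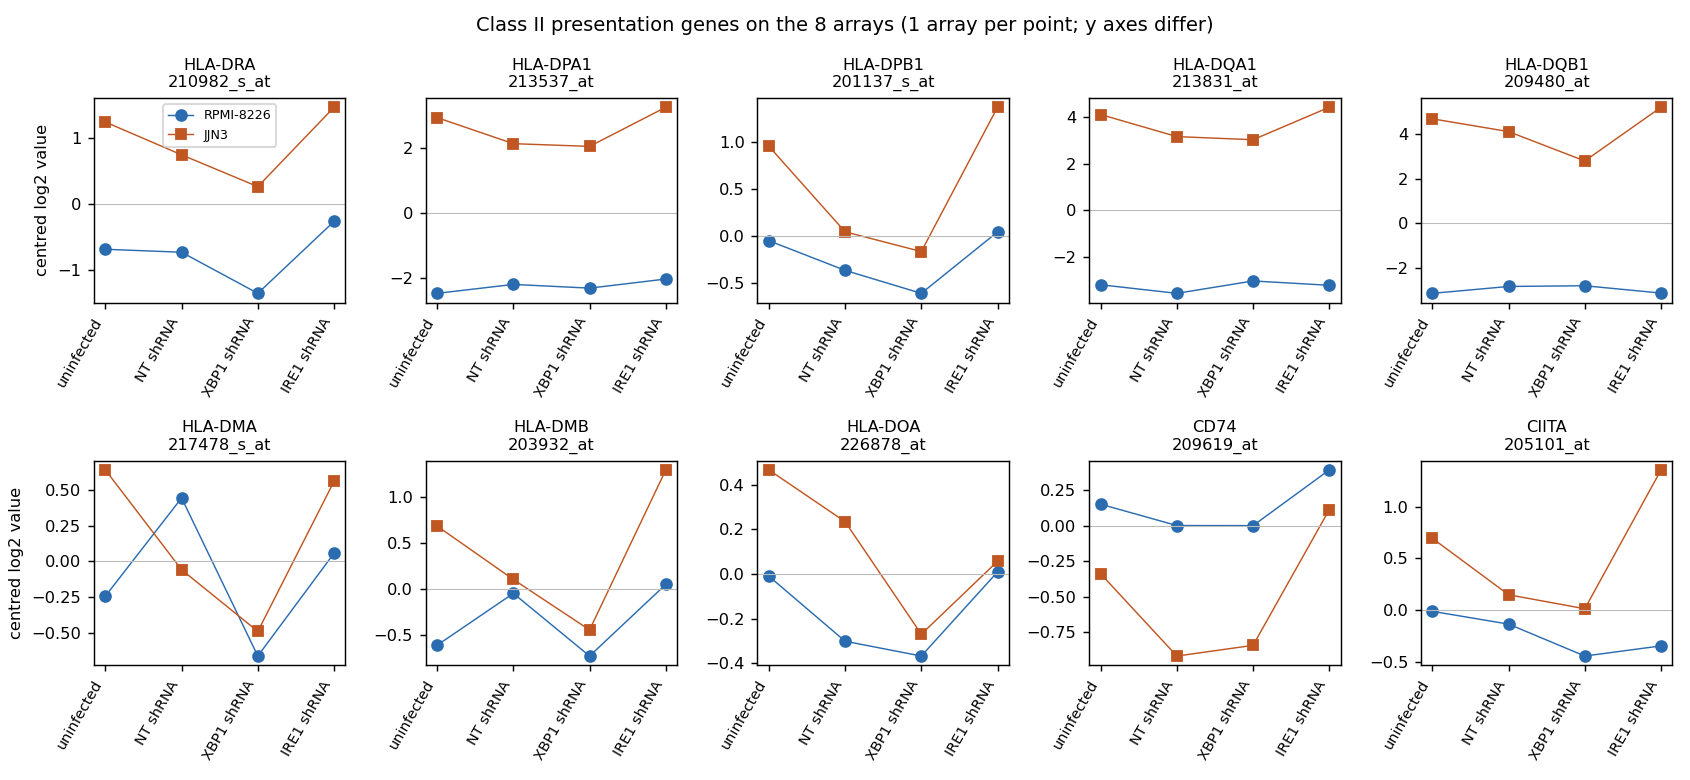
Centred log2 signal (y axis, each probe set's median over 8 arrays set to 0) of the representative probe set of each member gene on each array (x axis, 4 states), 1 point per array, 1 colour per line; lines only join arrays of a cell line. HLA-DPA1, HLA-DQA1 and HLA-DQB1 are separated by line on every array. In JJN3 9 of the 10 genes have their lowest point on the XBP1 shRNA array, as have 29.6% of all probe sets.

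**Figure D2:**
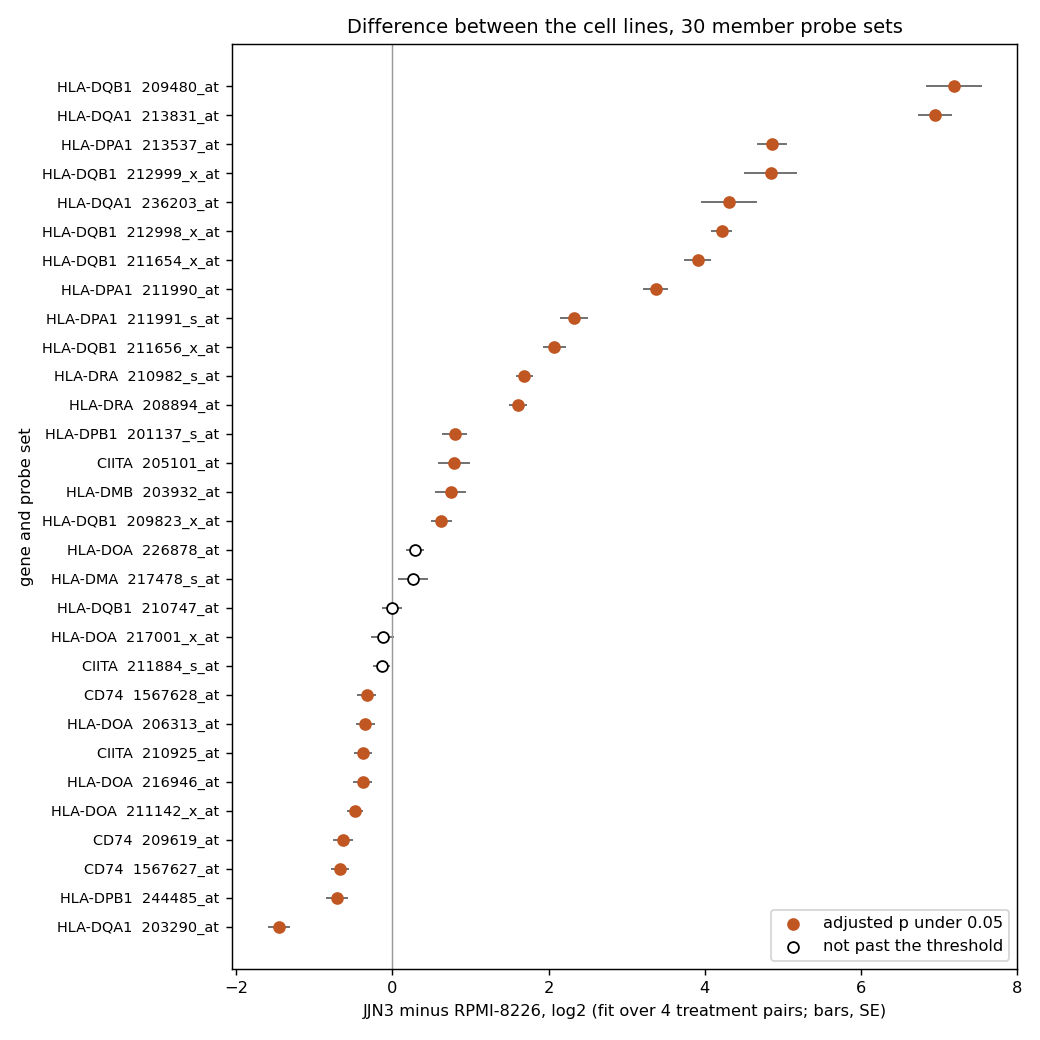
JJN3 minus RPMI-8226 log2 difference (fit value with its standard error, 4 pairs of arrays) of all 30 member probe sets, ordered by the difference; filled points passed an adjusted p of 0.05. HLA-DQB1 and HLA-DQA1 reach 7.19 and 6.95, while CD74 lies below 0 on all 3 of its probe sets and HLA-DQA1 has a probe set at -1.46.

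HLA-DQ, a pair of chains that presents peptide like HLA-DR and HLA-DP, showed the widest gap among the members. The beta chain HLA-DQB1 (209480_at; gene at GRCh38.p14 chromosome 6, 32659467 to 32666657) read -3.14, -2.83, -2.80 and -3.13 on the uninfected, NT shRNA, XBP1 shRNA and IRE1 shRNA arrays of RPMI-8226. In JJN3 the HLA-DQB1 values, in the same order of arrays, were 4.69, 4.12, 2.80 and 5.22. The lines do not overlap, and RPMI-8226 is nearly flat while JJN3 moves over more than 2 log2 units. The log2 difference was 7.19 ± 0.36 (SE; 146-fold, adjusted p = 4.2e-07, higher in JJN3 in 4 of 4 pairs). Of the other 6 HLA-DQB1 probe sets, 5 were also higher in JJN3, from 0.63 (209823_x_at) to 4.84 (212999_x_at), and 210747_at differed by -0.0018 (adjusted p = 0.99).

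The alpha chain HLA-DQA1 (213831_at; chromosome 6, 32637406 to 32655272) read -3.20, -3.57, -3.04 and -3.22 in RPMI-8226 and 4.12, 3.17, 3.04 and 4.43 in JJN3, in the order uninfected, NT, XBP1 and IRE1 shRNA. Its difference of 6.95 ± 0.22 (123-fold, adjusted p = 3.0e-08) was joined by 4.31 ± 0.36 at 236203_at. The remaining HLA-DQA1 probe set, 203290_at, went the other way: it read 0.78, 0.70, 0.46 and 0.98 in RPMI-8226 and -0.98, -0.92, -0.46 and -0.54 in JJN3, for a fit of -1.46 ± 0.14 (adjusted p = 3.2e-05). Probe sets of the same gene thus disagreed in sign, and how far the alleles of each line fit the probes was not tested.

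HLA-DP followed in part. The alpha chain HLA-DPA1 (213537_at; chromosome 6, 33064569 to 33080748) read -2.49, -2.21, -2.33 and -2.05 in RPMI-8226 and 2.93, 2.13, 2.05 and 3.25 in JJN3. All 3 HLA-DPA1 probe sets separated the lines, by 4.86 ± 0.19 (29.0-fold, adjusted p = 1.1e-07), 3.37 ± 0.16 and 2.32 ± 0.18. The beta chain HLA-DPB1 (201137_s_at; chromosome 6, 33075990 to 33089696) read -0.047, -0.36, -0.61 and 0.047 in RPMI-8226 and 0.96, 0.048, -0.16 and 1.37 in JJN3. The lines overlap there through the XBP1 shRNA array of JJN3, and its NT shRNA array lies just above the highest RPMI-8226 value. The fitted HLA-DPB1 difference was 0.80 ± 0.16 (adjusted p = 0.0026), whereas the second HLA-DPB1 probe set, 244485_at, differed by -0.71 ± 0.14 (adjusted p = 0.0023), and the mean of both by 0.043 ± 0.13 (adjusted p = 0.78).

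HLA-DRA, the shared alpha chain of all HLA-DR molecules (210982_s_at; chromosome 6, 32439887 to 32445046), read -0.69, -0.73, -1.35 and -0.26 in RPMI-8226 and 1.24, 0.75, 0.26 and 1.47 in JJN3. The lines do not overlap, and in each the XBP1 shRNA array is the lowest and the IRE1 shRNA array the highest. JJN3 was higher by 1.69 ± 0.11 (3.22-fold, adjusted p = 2.2e-06) and, at 208894_at, by 1.61 ± 0.11. The HLA-DR beta chains, which are no members, split: HLA-DRB1 (208306_x_at) was higher in JJN3 by 2.44 ± 0.11, and HLA-DRB4 (209728_at) lower by 2.53 on the log2 scale (difference -2.53 ± 0.14), with both other HLA-DRB4 probe sets also lower. HLA-DRB4 is carried by some HLA haplotypes only.

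Among the exchange factors, HLA-DMB (203932_at; chromosome 6, 32934636 to 32941028) read -0.61, -0.049, -0.73 and 0.049 in RPMI-8226 and 0.68, 0.10, -0.45 and 1.29 in JJN3. HLA-DMA (217478_s_at; chromosome 6, 32948618 to 32953097) read -0.24, 0.45, -0.66 and 0.058 in RPMI-8226 and 0.64, -0.058, -0.49 and 0.56 in JJN3. The lines overlap for both chains of HLA-DM; HLA-DMB was higher in JJN3 by 0.74 ± 0.20 (adjusted p = 0.012), and the HLA-DMA difference of 0.26 ± 0.19 did not pass (adjusted p = 0.27). Without the pair of uninfected arrays the adjusted p of HLA-DMB was 0.057, without the IRE1 shRNA pair 0.060, and without the NT shRNA pair HLA-DMA passed at 0.52 ± 0.16 (adjusted p = 0.026).

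HLA-DOA, the alpha chain of HLA-DO (226878_at; chromosome 6, 33004182 to 33009591), read -0.0096, -0.30, -0.37 and 0.0096 in RPMI-8226 and 0.47, 0.23, -0.27 and 0.057 in JJN3, a difference of 0.29 ± 0.12 that did not pass (adjusted p = 0.065). It passed with quantile normalisation (0.34, adjusted p = 0.042) and cyclic loess (0.43, adjusted p = 0.014). Of its other 4 probe sets, 3 were lower in JJN3, by -0.48 ± 0.10 (211142_x_at), -0.38 ± 0.12 (216946_at) and -0.35 ± 0.12 (206313_at). Of these lower calls, 206313_at missed the threshold with quantile normalisation (adjusted p = 0.071) and loess (0.082), and 216946_at with loess (0.10), while 211142_x_at passed with both (0.0095 and 0.017). The HLA-DOA probe sets thus differed in sign between the lines under each of the 3 scalings.

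CD74 stood on the other side from most class II chains. Its 209619_at (chromosome 5, 150401639 to 150412910) read 0.15, 0.00027, -0.00027 and 0.39 in RPMI-8226 and -0.34, -0.92, -0.84 and 0.11 in JJN3. The lines overlap through the JJN3 IRE1 shRNA array alone. All 3 CD74 probe sets were lower in JJN3, by -0.63 ± 0.13 (adjusted p = 0.0028), -0.67 ± 0.12 (1567627_at) and -0.33 ± 0.12 (1567628_at, adjusted p = 0.045). The call of 1567628_at was lost with quantile normalisation (adjusted p = 0.099) and loess (0.16).

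CIITA (205101_at; chromosome 16, 10866206 to 10943021) read -0.013, -0.14, -0.45 and -0.35 in RPMI-8226 and 0.69, 0.15, 0.013 and 1.36 in JJN3. Every JJN3 array lies above every RPMI-8226 array, by 0.79 ± 0.21 in the fit (1.73-fold, adjusted p = 0.010). The line gap of CIITA is smaller than those of HLA-DQ and HLA-DPA1 on the same log2 scale. CIITA 210925_at was lower in JJN3 (-0.38 ± 0.12), 211884_s_at differed by -0.14 ± 0.11 (adjusted p = 0.30), and with cyclic loess 205101_at gave 0.49 (adjusted p = 0.10). The lower call of 210925_at was lost with quantile normalisation (adjusted p = 0.061) and loess (0.11).

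Scaling moved the line difference of all genes: the median over all probe sets was -0.14 as deposited, -0.06 after quantile normalisation and -0.01 after cyclic loess. Higher calls made up 64.0% of the member calls as deposited (40.6% over all probe sets), 73.9% after quantile normalisation, with 17 higher and 6 lower (48.7% over all), and 76.2% after loess, with 16 and 5 (53.3% over all).

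Class II signals also varied more among the 4 JJN3 arrays than among the 4 RPMI-8226 arrays. The range from lowest to highest array was wider in JJN3 for 22 of 30 member probe sets (73.3%; 51.6% of all probe sets). Its median was 0.44 in RPMI-8226 and 0.94 in JJN3 for the members, and 0.36 and 0.37 for all probe sets. HLA-DQA1 at 236203_at shows it most plainly: -1.75, -1.59, -1.66 and -1.66 in RPMI-8226 and 3.35, 1.72, 1.59 and 3.90 in JJN3. In JJN3 20 of the 30 had their highest value on the IRE1 shRNA array (27.5% of all probe sets did) and 22 had their lowest on the XBP1 shRNA array (29.6% of all). In RPMI-8226 the same held for 17 (21.3% of all) and 14 (26.1% of all), and 0 members were lowest on the IRE1 shRNA array (20.3% of all). These are counts over probe sets that share arrays and genes.

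The arrays labelled XBP1 shRNA and IRE1 shRNA differed directly, and every member that passed was higher with IRE1 shRNA. Of the 30 probe sets, 4 passed, all upward: both of HLA-DRA, 201137_s_at of HLA-DPB1 and 212998_x_at of HLA-DQB1. The background was 1.90% of all probe sets in either direction and 0.908% upward. In all, 27 of the 30 differences were above 0 and 17 had an unadjusted p under 0.05, as had 7481 of all 54613 probe sets. The median was 0.64 over the members (0.28 in RPMI-8226, 0.94 in JJN3) and 0.0053 over all probe sets.

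**Figure D3:**
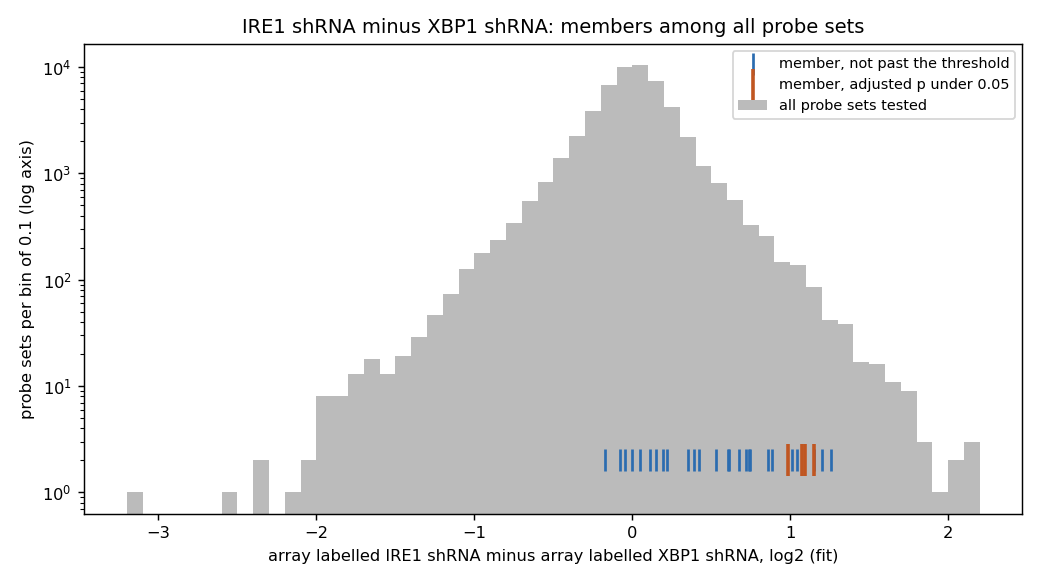
Number of probe sets (y axis, log scale, bins of 0.1) by IRE1 shRNA minus XBP1 shRNA log2 difference (x axis, fit over both lines) for all 54613 tested, with the 30 members as vertical marks, thicker where the adjusted p is under 0.05. The marks run from -0.17 to 1.26, 27 of the 30 lie above 0, and many other probe sets lie as far out on both sides.

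HLA-DRA rose by similar amounts in both lines. At 210982_s_at the IRE1 shRNA array exceeded the XBP1 shRNA array by 1.09 in RPMI-8226 and 1.20 in JJN3, for a fitted 1.15 ± 0.16 (2.22-fold, adjusted p = 0.015, 2 of 2 lines). At 208894_at it did so by 1.21 and 0.94 (fit 1.07 ± 0.16, adjusted p = 0.018). Both HLA-DRA calls were lost with quantile normalisation (adjusted p = 0.063 and 0.064) and kept with cyclic loess (0.018 and 0.021). HLA-DPB1 201137_s_at rose by 0.65 in RPMI-8226 and 1.54 in JJN3 (fit 1.09 ± 0.23, adjusted p = 0.049); this call was lost with any of the 8 arrays left out (adjusted p from 0.058 to 0.40), with quantile normalisation (0.11) and with cyclic loess (0.057). HLA-DQB1 212998_x_at read -2.02, -1.85, -2.60 and -1.69 in RPMI-8226 and 2.39, 1.86, 1.69 and 2.76 in JJN3, and rose by 0.91 and 1.07 (fit 0.99 ± 0.20, adjusted p = 0.042). That call was lost with quantile normalisation (adjusted p = 0.051) and kept with cyclic loess (0.045). With each array left out its difference ran from 0.83 to 1.15.

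The other members did not pass. HLA-DMB differed by 1.26 ± 0.28 (adjusted p = 0.064; RPMI-8226 0.78, JJN3 1.74), HLA-DMA by 0.89 ± 0.28 (adjusted p = 0.17; 0.72 and 1.05), and CD74 by 0.67 ± 0.18 (adjusted p = 0.11; 0.39 and 0.95). The 3 HLA-DPA1 probe sets differed by 0.74, 0.86 and 1.01, with adjusted p between 0.094 and 0.25. For CIITA the gap was 1.34 in JJN3 and 0.098 in RPMI-8226 (fit 0.72 ± 0.29, adjusted p = 0.31). HLA-DQB1 209480_at and HLA-DQA1 213831_at had opposite signs by line, at 2.41 and 1.40 in JJN3 against -0.33 and -0.19 in RPMI-8226. HLA-DOA differed by 0.35 ± 0.17 (adjusted p = 0.42). The 4 calls fell to 0 with quantile normalisation (13 at an unadjusted p under 0.05), where 452 of the 54613 probe sets were called in place of 1035. They also fell to 0 without the cell line block (0 unadjusted; 0 calls over all probe sets). Without the RPMI-8226 IRE1 shRNA, JJN3 XBP1 shRNA or JJN3 IRE1 shRNA array there were 0 member calls (19, 9 and 6 unadjusted) beside 182, 265 and 1 over all probe sets, and without either uninfected array 2 beside 745. The poly-A and hybridisation control readings given above are highest on the XBP1 shRNA arrays and on the JJN3 IRE1 shRNA array; their part in the result was not tested.

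**Figure D4:**
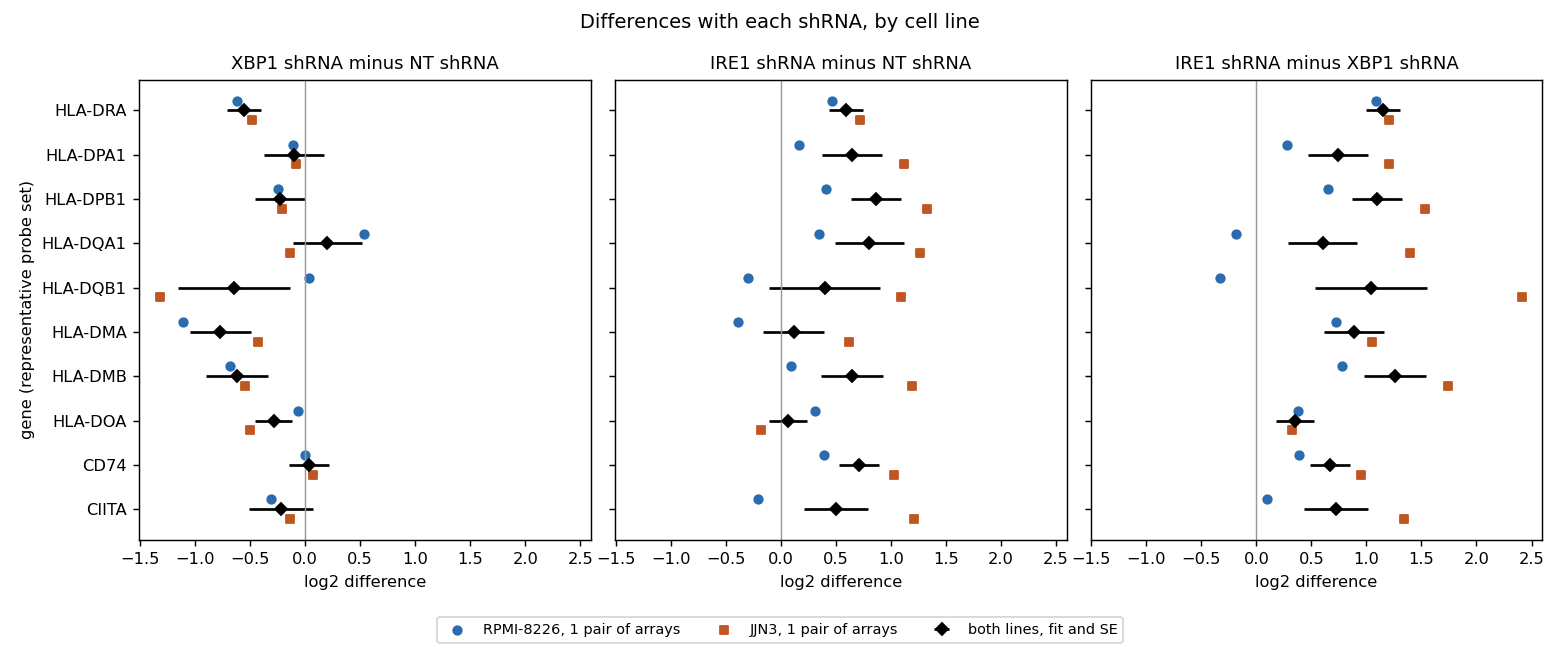
Log2 differences for XBP1 shRNA minus NT shRNA, IRE1 shRNA minus NT shRNA and IRE1 shRNA minus XBP1 shRNA (x axis) of each gene's representative probe set: circles and squares are the single pair of arrays of RPMI-8226 and JJN3, diamonds the fit over both lines with its standard error. In the right panel all 10 fits lie above 0, and the HLA-DRA points of both lines, 1.09 and 1.20, lie close together while those of HLA-DQB1, -0.33 and 2.41, lie apart.

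Against NT shRNA, neither shRNA gave a member call, and these 2 comparisons share the NT arrays. With XBP1 shRNA 0 of 30 passed (4 at an unadjusted p under 0.05; background 1.21% called, 7483 unadjusted), 22 of the 30 differences were below 0, and the median was -0.12. HLA-DRA was nearest the threshold, at -0.57 ± 0.16 (208894_at, adjusted p = 0.13) and -0.55 ± 0.16 (210982_s_at, adjusted p = 0.14). HLA-DMA stood at -0.77 ± 0.28 (adjusted p = 0.25; RPMI-8226 -1.11, JJN3 -0.43), and CD74 at 0.037 ± 0.18.

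With IRE1 shRNA 0 of 30 passed (10 unadjusted; background 0.0183% called, 5170 unadjusted), 27 of the 30 were above 0, and the median was 0.41 (0.17 in RPMI-8226, 0.76 in JJN3). HLA-DPA1 211990_at stood at 0.91 ± 0.23 (adjusted p = 0.23), CD74 at 0.71 ± 0.18 (adjusted p = 0.24) and HLA-DPB1 at 0.87 ± 0.23 (adjusted p = 0.25). CIITA was at 1.21 in JJN3 and -0.21 in RPMI-8226 (limma fit 0.50, adjusted p = 0.67). HLA-DMA was at 0.62 and -0.39 (limma fit 0.12, adjusted p = 0.96). The signs thus differed between single pairs of arrays, and whether this comparison depends on the line was not tested.

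Lentivirus with NT shRNA was itself set against no infection. There, 0 of 30 members and 0% of all probe sets passed (2 and 3044 unadjusted), while 28 of the 30 member differences were below 0 (median -0.17; -0.00043 in RPMI-8226 and -0.52 in JJN3). HLA-DPB1 had -0.61 ± 0.23 (-0.32 and -0.91) and HLA-DQA1 213831_at -0.66 ± 0.31 (-0.37 and -0.95), both with an adjusted p of 0.87. In JJN3 the member median for XBP1 shRNA was -0.15 against the NT shRNA array and -0.68 against the uninfected array.

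Against uninfected cells, XBP1 shRNA gave 2 member calls, both of HLA-DRA and both downward, beside 2.11% of all probe sets called and 1.22% downward. HLA-DRA fell by 0.82 on the log2 scale at 210982_s_at (difference -0.82 ± 0.16, adjusted p = 0.037; RPMI-8226 -0.67, JJN3 -0.98) and by 0.75 at 208894_at (-0.75 ± 0.16, adjusted p = 0.049). In all, 8 member probe sets had an unadjusted p under 0.05 (against 8019 of all probe sets). HLA-DPB1 was at -0.84 ± 0.23 (adjusted p = 0.11). With IRE1 shRNA against uninfected cells 0 of 30 passed (0 unadjusted; 0.00183% of all probe sets called, 3965 unadjusted), with a median of 0.20. These comparisons share the uninfected arrays with each other, and their shRNA arrays with the comparisons against NT shRNA.

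With both shRNAs pooled against both controls, 0 of 30 members and 0% of all probe sets passed (0 and 5080 unadjusted), with a member median of 0.025. The test of whether that pooled difference depended on the line also gave 0 member calls and 0% over all probe sets (0 and 2856 unadjusted). Against NT shRNA the member medians of the shRNAs had opposite signs, -0.12 with XBP1 shRNA and 0.41 with IRE1 shRNA. Pooling averages such differences and counts the gap between the shRNAs as spread. Neither pooled test can therefore show a change that the shRNAs do not share.

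**Figure D5:**
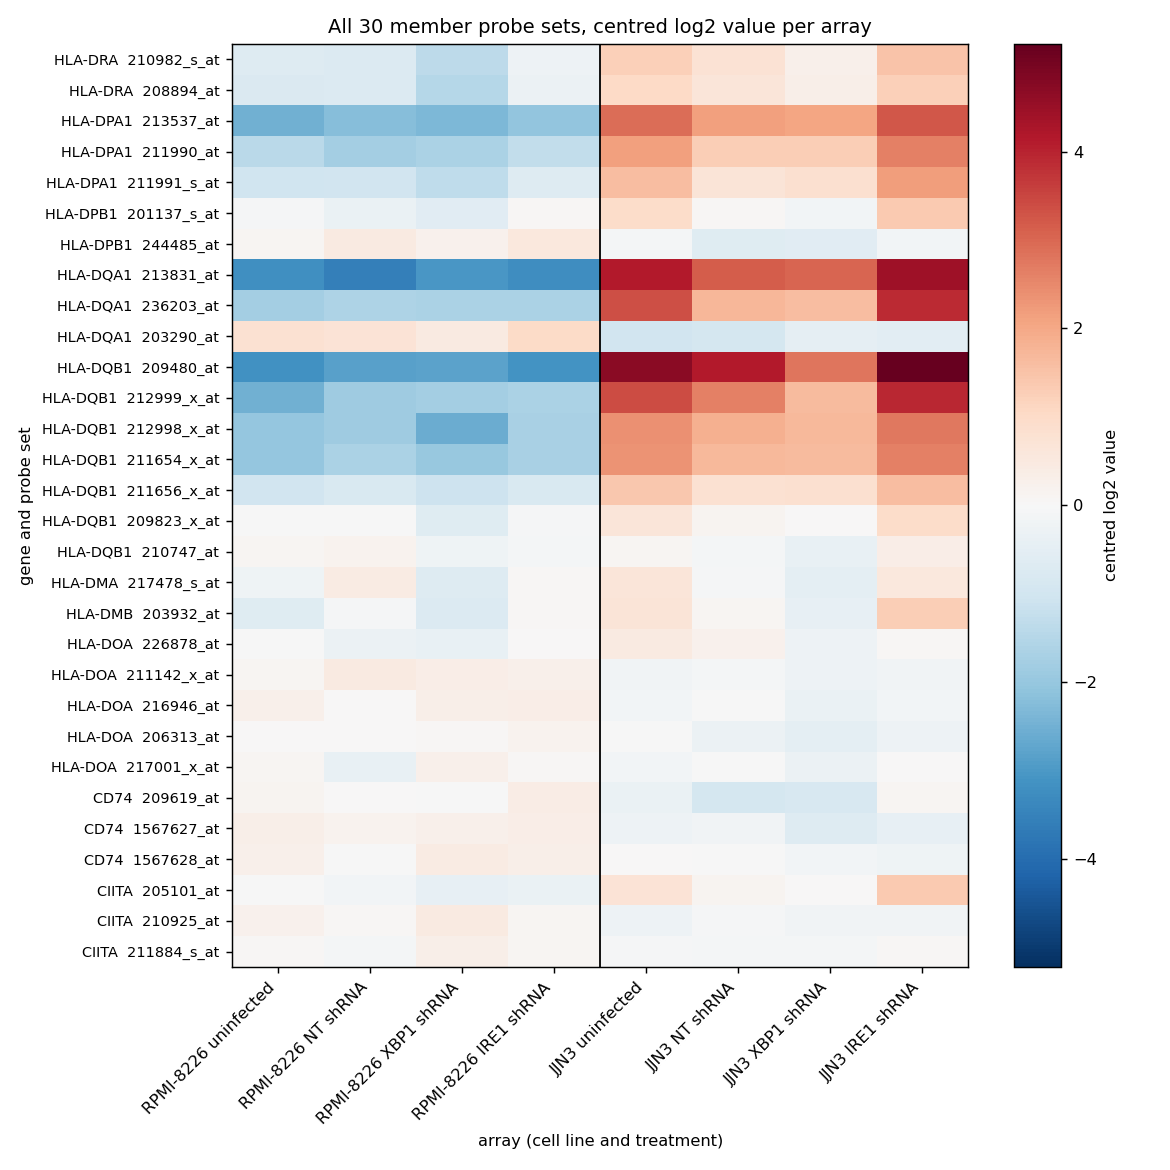
Centred log2 signal of all 30 member probe sets (rows, by gene) on the 8 arrays (columns), by colour. The rows of HLA-DPA1, HLA-DQA1 and most of HLA-DQB1 switch colour between the lines, that of HLA-DQB1 210747_at does not, and the HLA-DQA1 and HLA-DPB1 rows of opposite sign show where probe sets of a gene disagree.

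Genes around the members were taken from a list of 63, of which 58 had a probe set of their own: regulators, interferon gamma input, other class II chains, processing enzymes, turnover factors, CD74 partners and costimulators. Between the lines 28 of the 58 were higher in JJN3 and 19 lower, with a median of 0.099. Each gene counts here by its probe set of highest SD, and 68.8% of all 19775 genes taken so were called, 25.4% higher and 43.5% lower in JJN3. Of 21 regulators 16 were higher and 4 lower. RFX5, which binds the X box, was higher by 1.58 ± 0.13, NFYC, a subunit of the Y box factor NF-Y, by 1.32 ± 0.13, and CREB1 by 0.73 ± 0.11. RFXANK and NFYB were higher by 0.32 and 0.40, RFXAP lower (-0.78 ± 0.13), and NFYA at 0.07 (adjusted p = 0.66). PRDM1, the repressor of CIITA, and IRF4, a plasma cell factor, were also higher in JJN3, by 1.67 ± 0.13 and 1.70 ± 0.15, while IRF8, SPI1 and PAX5, which act in B and myeloid cells, were lower (-1.53, -0.50 and -0.52). BCL6, a germinal centre repressor, had the largest regulator difference, at 3.45 ± 0.53, but unevenly over the pairs. On the uninfected, NT, XBP1 and IRE1 shRNA arrays it read -3.85, -0.15, -3.93 and -3.92 in RPMI-8226. In JJN3 it read 0.87, 0.64, 0.28 and 0.15, so the NT shRNA pair differed far less than the others. The CIITA-binding ZXDC followed at 2.02 ± 0.12. The coactivators CREBBP (1.69), KAT2B (1.62) and EP300 (1.05), the remodeller SMARCA4 (1.32) and the chromatin enzymes EZH2 (0.94), HDAC1 (0.93) and HDAC2 (0.60) were higher as well.

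Of 11 processing genes 5 were higher and 2 lower in JJN3. CTSS, the protease that trims the invariant chain, was higher by 1.34 ± 0.11, SPPL2A, which cleaves its membrane stub, by 1.60 ± 0.17, and CTSH, an aminopeptidase, by 1.16 ± 0.22, as were the lysosomal membrane protein LAMP1, by 1.09 ± 0.11, and CTSF, by 0.33 ± 0.11. The cathepsins CTSZ (-4.55 ± 0.30) and CTSB (-1.86 ± 0.23) were lower, and CTSL (-0.16) and LGMN (-0.13) did not pass. MARCHF8, a ligase that removes class II from the surface, was higher by 1.82 ± 0.12, and MARCHF1, its relative, was at -0.39 (adjusted p = 0.072), and CD83, which counters MARCHF1, was lower (-0.79 ± 0.12). HLA-DOB was lower (-0.35 ± 0.11), the pseudogene HLA-DRB6 higher (0.81 ± 0.16), and the class II relatives HLA-DQB2 (0.13) and HLA-DPB2 (0.00089) did not pass.

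The signalling and surface partners of the pathway went both ways between the lines. Of 8 genes of interferon gamma input, which switches CIITA on in many cells, 2 were higher in JJN3, JAK1 by 1.38 ± 0.14 and JAK2 by 0.53 ± 0.11, and 4 were lower, SOCS1 (-0.72 ± 0.12), IRF1 (-0.67 ± 0.21), IFNGR1 (-0.46 ± 0.11) and IRF2 (-0.42 ± 0.11). CD44, the signalling partner of surface CD74, was higher by 1.82 ± 0.16 and the chemokine receptor CXCR4 by 0.70 ± 0.16, while MIF, the ligand of CD74, was lower (-0.37 ± 0.10), as was CXCR2 (-1.02 ± 0.11). Of 5 costimulators 0 were higher and 4 lower in JJN3: CD86 (-3.45 ± 0.20), ICAM1 (-1.31 ± 0.13), CD58 (-0.62 ± 0.15) and CD80 (-0.29 ± 0.10).

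Between the shRNAs 3 of these 58 genes rose with IRE1 shRNA and 3 fell, where 2.86% of all genes were called. CTSH read -0.16, -0.063, -0.95 and 0.063 in RPMI-8226 and 0.98, 0.62, -0.23 and 2.19 in JJN3, in the same order of arrays as above. It is lowest on the XBP1 shRNA array and highest on the IRE1 shRNA array in each line, as HLA-DRA is, and rose by 1.71 ± 0.30 (adjusted p = 0.031). IRF4 rose by 1.18 ± 0.21 (adjusted p = 0.029) and PRDM1 by 0.96 ± 0.19 (adjusted p = 0.040). The class II promoter factors RFXAP (-0.96 ± 0.19) and NFYA (-0.85 ± 0.17) and the deacetylase HDAC1 (-0.89 ± 0.14) fell. RFX5 (0.25), RFXANK (-0.12), NFYB (0.08), NFYC (-0.13), CREB1 (0.08), IRF8 (0.14), SPI1 (-0.01) and PAX5 (0.15) did not pass.

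Against NT shRNA, PRDM1 fell by 1.23 with XBP1 shRNA (-1.23 ± 0.19, adjusted p = 0.026) and IFNGR2, a chain of the interferon gamma receptor, rose by 0.96 ± 0.17 (adjusted p = 0.042); IRF4 was at -1.06 ± 0.21 (adjusted p = 0.051). Of all genes, 1.87% were called in that comparison. With IRE1 shRNA against NT shRNA 0 of the 58 passed, beside 0.0354% of all genes. Between the XBP1 shRNA and uninfected arrays 3.14% of all genes were called. Lower with XBP1 shRNA there were IRF4 (-1.47), PRDM1 (-1.19), MARCHF8 (-0.96) and the coactivator CREBBP (-0.93), and higher were NFYA (0.87) and HDAC1 (0.81). These arrays differ in lentivirus infection as well as in the shRNA.

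Markers of other cells that carry class II were read in the same way, without levels. In JJN3, B cell markers were higher in 0 and lower in 4 of 6, monocyte, macrophage and dendritic cell markers in 0 and 6 of 8, and T and NK cell markers in 0 and 3 of 7, with medians of -0.53, -0.42 and -0.29. Of all 19775 genes, 25.4% were called higher and 43.5% lower in JJN3, and the T and NK count lies near that share. These 3 lists gave 0 calls between the shRNAs, where 2.86% of all genes were called. Plasma cell markers were higher in 4 and lower in 4 of 9. The higher ones were IRF4, PRDM1, TNFRSF17 and SLAMF7, by up to 1.70. The lower ones were CD38 (-4.72 ± 0.22), MZB1 (-2.22), JCHAIN (-2.12) and SDC1. The samples are cultures of cell lines and not mixed tissue, and without levels it is not known whether these markers are expressed at all. As each culture was read in bulk, fewer cells that express a gene and less RNA per cell cannot be told apart.

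Finally, the members were compared with each other and with other genes by their pattern within lines, as a description. The mean of the 10 representative probe sets, centred within each line, stood at -0.0083, 0.046, -0.21 and 0.17 on the uninfected, NT, XBP1 and IRE1 shRNA arrays of RPMI-8226 and at 0.34, -0.30, -0.68 and 0.64 on those of JJN3. JJN3 thus carries most of this pattern. Over the 8 arrays, the Pearson r of each member to the mean of the other 9 was 0.96 for HLA-DPB1, 0.94 for HLA-DPA1 and HLA-DMB, 0.89 for CD74, 0.88 for CIITA, 0.87 for HLA-DRA, 0.84 for HLA-DQB1, 0.83 for HLA-DQA1, 0.79 for HLA-DMA and 0.50 for HLA-DOA. The points share arrays, lines and depth of signal.

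Among 955 genes with a within-line SD of at least 0.5, HLA-DPB1 (r = 0.97) and HLA-DMB (0.95) held ranks 1 and 3 by likeness to the member mean, which holds both. The others of the top 10 were MYOF (0.96), a membrane repair protein, CTSH (0.93), the lipid flippase ATP8A2 (0.91), the prostaglandin receptor PTGER4 (0.91), dystrophin DMD (0.91), LINC03024 (0.90), the lysophosphatidic acid receptor LPAR4 (0.89) and the basement membrane protein NID2 (0.89). MYOF was flat in RPMI-8226, at -0.58, -0.62, -0.71 and -0.62, and read 2.41, 1.64, 0.58 and 3.25 in JJN3. The least alike were SNX21 (-0.98), the folate transporter SLC46A1 (-0.97), FKBP1B (-0.95), MEAK7 (-0.95) and SOCS7 (-0.94). SLC46A1 read 0.86, 1.52, 2.12 and 0.0094 in JJN3, with its highest value on the XBP1 shRNA array.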

How the data were processed

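RNA of 8 samples was hybridised to Affymetrix U133 Plus 2.0 arrays, 1 per cell line and treatment. The deposited values are log2 signals made with RMA, per the submitters' processing notes, whose version is not given in the sources used here; the median across the 8 arrays is 0 for each of the 54675 rows (tolerance 0.00001), and values run from -5.73 to 5.45, so no level, detection limit or depth can be read. Precision is limited by having 8 arrays. Of 28 pairs of arrays, 0 held identical values. Probe sets were named by the platform annotation.

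Leaving out 62 control probe sets, limma 3.58.1 in R 4.3.3 was fitted to 54613 probe sets with treatment and cell line as terms (3 residual degrees of freedom per probe set before moderation), two-sided, with Benjamini-Hochberg adjustment at 0.05. Adjusted p-values come from this fit; the pooled silencing test used a fit with silencing and line as terms, and its dependence on line a fit with their interaction, over the same probe sets. The cell line is the replicate and the block: the pairing of arrays comes from the line they were made from. Whether the arrays of a line came from separate cultures is not given, so p-values measure the spread between these arrays, which may be technical. A gene with several probe sets is represented by that of highest SD. All members were named, with regulators and processing genes of a written list, other list genes past the threshold, the targets, and the 10 most and 5 least alike genes; HLA-DRB1, HLA-DRB4, and MYOF and SLC46A1 values were given as examples. The members and lists were chosen with earlier results of these data known. The fit was tested on simulated data. Alternatives were other scaling, no block, filters, other probe set rules, uninfected controls, and each array left out. Figures were drawn with matplotlib 3.10.9 in Python 3.11.15.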

Additional observations from a re-analysis of the deposited data

How the results depend on the processing

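Line calls among the members stayed within 1.5 times of the 25 (56.0% over all probe sets) under other scalings, without the block and with any array left out. They were 23 with quantile normalisation (49.5% over all), 21 with cyclic loess (46.9%), 23 without the block (52.9%) and 21 to 25 with an array left out (47.0% to 48.6%). They were 16 of 18 without _x_at and _s_at probe sets, 8 higher and 8 lower in JJN3 (53.0% over all probe sets kept). With 1 probe set per gene they were 8 of 10, 7 higher and 1 lower (68.9% over all genes). Both settings test fewer members. Between IRE1 and XBP1 shRNA the 4 calls became 2 with 1 probe set per gene, 1 without _x_at and _s_at probe sets, 0 with quantile normalisation, 0 with no replicate block, and 0 to 3 with an array left out; the cause was not tested. XBP1 shRNA gave 2 calls with uninfected cells in place of NT shRNA (2.11% over all probe sets). Leaving out the cell line block left 0 member calls against NT shRNA and for NT shRNA against uninfected, as with it, while the counts at an unadjusted p under 0.05 fell from 4 (XBP1 shRNA), 10 (IRE1 shRNA) and 2 (NT shRNA) to 0; between the lines HLA-DPB1 and HLA-DMB then missed the threshold (adjusted p = 0.056 and 0.087). For the pooled silencing and its dependence on line only counts were recomputed.

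Some signs turned, all of values that had not passed the test as reported. Averaging a gene's probe sets gave -0.21 for HLA-DOA between the lines, and -0.0012 for CD74 and 0.041 for CIITA for XBP1 against NT shRNA. With uninfected cells as control, XBP1 shRNA gave -0.46 for HLA-DQA1 and -0.33 for CD74, and IRE1 shRNA -0.20 for HLA-DOA. Quantile normalisation turned NT shRNA against uninfected for HLA-DQB1 (0.054), HLA-DMA (0.085) and HLA-DMB (0.0046).

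With each array left out in turn, values with no call crossed 0 as follows. For XBP1 against NT shRNA they ran from -0.44 to 0.25 for HLA-DPA1, -0.48 to 0.030 for HLA-DPB1, -0.38 to 0.78 for HLA-DQA1, -1.70 to 0.41 for HLA-DQB1, -0.15 to 0.23 for CD74 and -0.56 to 0.11 for CIITA. For IRE1 against NT shRNA they ran from -0.38 to 1.17 for HLA-DQB1, -0.40 to 0.63 for HLA-DMA, -0.098 to 0.23 for HLA-DOA and -0.11 to 1.11 for CIITA, and for IRE1 against XBP1 shRNA from -0.013 to 2.10 for HLA-DQB1 (209480_at). For NT shRNA against uninfected they ran from -0.64 to 0.11 for HLA-DPA1, -0.57 to 0.30 for HLA-DQB1, -0.52 to 0.51 for HLA-DMA, -0.40 to 0.39 for HLA-DMB and -0.67 to 0.00099 for CIITA. Where an array is left out, its treatment has 1 array, assumed to vary like the others.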
